A study of Mus musculus with 12 samples.

Results

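The clustered protocadherins are the genes whose names start with Pcdha, Pcdhb or Pcdhg, and 9 of them were listed in at least 1 of the deposited tables, which together list 2876 genes. They were chosen by name among the listed genes, with earlier results of these data known. RNA was measured in 12 mammary tumors of female MMTV-Neu mice, in which the mouse mammary tumor virus promoter drives the Neu (HER2) transgene in mammary epithelium. All mice carried the transgene. For 10 days, 4 mice ate a control diet, 4 a diet with V-125 and 4 a diet with bexarotene, each agent at 100 mg/kg diet, and the tumors came from different mice. Both agents are agonists of the retinoid X receptor (RXR), a nuclear receptor that pairs with other nuclear receptors on DNA. The V-125 table lists 1589 genes with values for each of its 4 V-125-treated and 4 control tumors, and the bexarotene table lists 1784 genes with the authors' group means only. The authors' own unadjusted p-value stays under 0.05 for every gene in either table, so each listed gene had already been selected for a difference from control, and the same 4 control tumors serve both comparisons.

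Clustered protocadherins are cell surface adhesion proteins of the cadherin superfamily. Their genes stand in tandem arrays, called the alpha, beta and gamma clusters, on a single chromosome. In the alpha and gamma clusters each gene has its own promoter and its own large variable exon, which encodes the extracellular cadherin repeats, the membrane span and the first part of the cytoplasmic tail. This exon is spliced to small constant exons that all genes of the cluster share. Beta genes have a variable exon and no constant exons. The family is best known from the nervous system, where single neurons switch on different small sets of these promoters, with CTCF and cohesin bringing an enhancer to the chosen promoter, and where the proteins bind the same isoform on a neighboring cell. In breast and other tumors, promoters of the clusters are known to gain DNA methylation.

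On GRCm38, the 58 annotated genes of the family lie on chromosome 18 from 36930184 to 37841873, all on the plus strand, with 14 in the alpha, 22 in the beta and 22 in the gamma cluster (GENCODE M21). None of the 14 alpha genes was listed in either table. Of the 22 beta genes, Pcdhb14 and Pcdhb18 were listed for bexarotene and none for V-125. Of the 22 gamma genes, 5 were listed for V-125, namely Pcdhga5, Pcdhga6, Pcdhga7, Pcdhgb5 and Pcdhga9, and 4 were listed for bexarotene, namely Pcdhga2, Pcdhga5, Pcdhga9 and Pcdhga12. Thus Pcdhga5 and Pcdhga9 were the 2 genes found in both tables. A gene that is not listed did not pass the authors' p-value or was not tested, and these cases cannot be told apart here. How many genes the authors tested is not known here, so the share of all tested genes that was listed cannot be given. Counts of listed genes, here and below, are therefore no result about a set of genes.

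The 5 genes listed for V-125 lie in the middle of the gamma cluster. Pcdhga5 (ENSMUSG00000103567) starts at 37694380 and is the seventh gene of the cluster. It is followed by Pcdhga6 (ENSMUSG00000103793) at 37707039, Pcdhga7 (ENSMUSG00000103472) at 37714764, Pcdhgb5 (ENSMUSG00000103749) at 37731009 and Pcdhga9 (ENSMUSG00000102440) at 37736936, which are genes 8, 9, 12 and 13 in that order. Pcdhga2 starts at 37668953 and Pcdhga12 at 37765580, nearer to either end. All gamma genes end together, at 37841870 or 37841873, because they share the last exons. The deposited coordinates of the 5 genes were identical to those of the annotation. Pcdhb14 lies from 37447656 to 37456350 and Pcdhb18 from 37489465 to 37494505.

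How far a read can be assigned to 1 of these genes depends on the exon it comes from. In the 7 listed gamma genes, 2116 to 2119 exon bases also belong to exons of 25 other annotated genes on the same strand, which is between 31.5% and 45.4% of their exon sequence. For the 5 genes with a deposited gene length, this length equals all exon bases, shared ones included (4664 for Pcdhga5). The variable exons are better separated. The closest gamma gene was 72.6% to 81.7% identical in the first exon, and in 5 of the 7 genes no window of 100 bases of this exon occurred in the transcripts of the 56 other family genes searched. In Pcdhgb5, 76 of 2452 windows did (3.10%), and in Pcdhga9, 37 of 2509 (1.47%). The 2 beta genes share no annotated exon base with another gene on the same strand, and no such window with the other family genes searched. Exons of Pcdhga7 also overlap 536 bases of Gm37165 on the opposite strand, and those of Pcdhga12 overlap 422 bases of Gm26672. The reads were counted per gene with featureCounts, and how reads in shared exons or on the opposite strand were treated is not given in the sources used here.

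**Figure D1:**
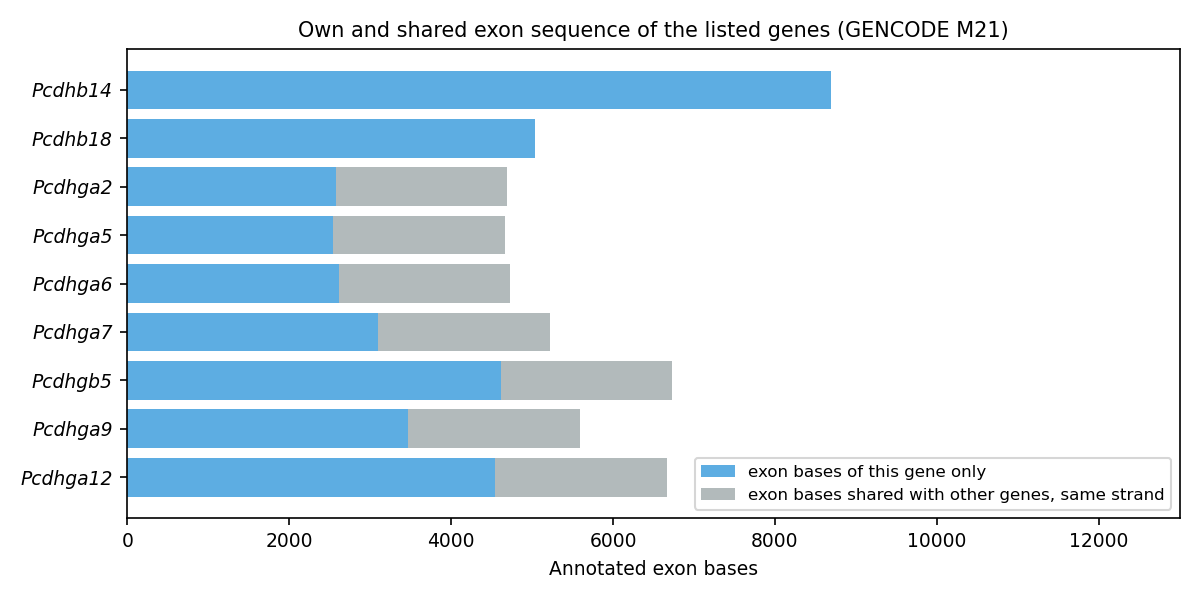
Annotated exon bases of the 9 listed clustered protocadherin genes (x axis, bases), split into bases of that gene only (blue) and bases shared with exons of other genes on the same strand (grey). The 7 gamma genes share 2116 to 2119 bases each, and Pcdhb14 and Pcdhb18 share none.

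With V-125, 2 of the 5 listed gamma genes were lower than in control tumors and 3 were higher. Pcdhga5 and Pcdhga9 were lower by 18.8-fold and 6.22-fold in group means of normalized counts, which are the read counts divided by the size factor of each tumor. Pcdhga7, Pcdhgb5 and Pcdhga6 were higher by 7.57-fold, 4.44-fold and 3.95-fold. All 5 were thus over 2-fold apart, as were 44.6% of the genes in this table. Across all genes of the table whose 2 means were above 0, the median absolute log2 ratio was 0.86, against 2.64 over the 5 genes. Genes with few reads and a wide spread, like these 5, are listed only when their ratios are large. The listing thus favors such a gap, and it is no result about these genes. Of these genes, Pcdhga5 alone passed edgeR's quasi-likelihood test with Benjamini-Hochberg adjustment over the 1333 genes fitted, of which 9.00% passed.

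In control tumors, replicates 1 to 4, the normalized counts of Pcdhga5 were 53.0, 78.6, 16.8 and 38.4. In V-125-treated tumors they were 0, 0.950, 7.94 and 1.06, from 0, 1, 8 and 1 reads. Every V-125-treated tumor was therefore below every control tumor, and the tumor with 8 reads stood apart from the other treated tumors. The control mean was 46.7 ± 26.0 (SD, n = 4) and the V-125 mean was 2.49 ± 3.67 (SD, n = 4) (two-sided exact permutation test, p = 0.0286, which is the lowest value 4 tumors per group can give). edgeR gave Pcdhga5 a log2 fold change of −4.22 (standard error 0.92) and an adjusted p of 0.0397. This adjusted p counts only the listed genes. With the number of tests raised to 31780, at which 1589 genes would fall under a p-value of 0.05 by chance alone, it was 0.947 in edgeR, 0.00752 in DESeq2 and 1 in limma-voom. Leaving out V-125 replicate 2 or 4, or control replicate 1, 2 or 4, raised edgeR's adjusted p over the listed genes to between 0.0517 and 0.0912, with log2 fold changes from −4.30 to −3.84. Without V-125 replicate 3, the tumor with 8 reads, the log2 fold change was −6.11 with an adjusted p of 0.0492.

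Pcdhga9 had normalized counts of 8.07, 41.6, 6.39 and 30.7 in control replicates 1 to 4 and of 6.13, 3.80, 2.98 and 1.06 in V-125 replicates 1 to 4. The groups did not overlap, but the highest V-125-treated tumor and the lowest control tumor differed by less than 1 normalized count, and control replicates 2 and 4 carried most of the difference. The means were 3.49 ± 2.10 (SD, n = 4) and 21.7 ± 17.3 (SD, n = 4) (two-sided exact permutation test, p = 0.0286). With 14 reads in all V-125-treated tumors and 87 in all control tumors, Pcdhga9 did not reach the count filter of the edgeR fit. The difference of the means was −18.2 normalized counts, and −11.6 without control replicate 2. Without this filter its log2 fold change was −2.63 (standard error 0.87), with an adjusted p of 0.0599 in edgeR. Pcdhga5 and Pcdhga9 were the 2 of the 5 genes whose groups did not overlap, and 38.6% of all genes in the table had no overlap.

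Pcdhga7 had normalized counts of 97.1, 5.70, 19.9 and 74.0 in V-125 replicates 1 to 4 and of 3.46, 5.78, 4.79 and 12.0 in control replicates 1 to 4. V-125 replicates 1, 3 and 4 were above all control tumors, while V-125 replicate 2 was within their range. The means were 49.2 ± 43.4 (SD, n = 4) and 6.50 ± 3.76 (SD, n = 4) (two-sided exact permutation test, p = 0.0857). edgeR gave a log2 fold change of 2.90 (standard error 0.86) and an adjusted p of 0.0533.

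Pcdhgb5 had normalized counts of 6.13, 61.7, 28.8 and 115 in V-125 replicates 1 to 4 and of 11.5, 5.78, 16.8 and 13.7 in control replicates 1 to 4. Here V-125 replicate 1, which had the highest Pcdhga7 value, was within the control range, and the other V-125-treated tumors were above it. The means were 53.0 ± 47.4 (SD, n = 4) and 11.9 ± 4.63 (SD, n = 4) (two-sided exact permutation test, p = 0.114). edgeR gave a log2 fold change of 2.13 (standard error 0.77) and an adjusted p of 0.0642. Without V-125 replicate 1 the log2 fold change was 2.50, with an adjusted p of 0.0482 in edgeR, and without V-125 replicate 4 it was 1.42 with an adjusted p of 0.122.

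Pcdhga6 had normalized counts of 33.7, 10.4, 13.9 and 76.1 in V-125 replicates 1 to 4 and of 2.31, 4.62, 16.0 and 11.1 in control replicates 1 to 4. V-125 replicates 2 and 3 were within the control range, and replicates 1 and 4 were above it. The means were 33.6 ± 30.2 (SD, n = 4) and 8.50 ± 6.22 (SD, n = 4) (two-sided exact permutation test, p = 0.143). edgeR gave a log2 fold change of 1.94 (standard error 0.79) and an adjusted p of 0.0668, and the log2 fold change was 1.15 without V-125 replicate 4. DESeq2 called all 5 gamma genes, but it also called 70.2% of the genes in the table.

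**Figure D2:**
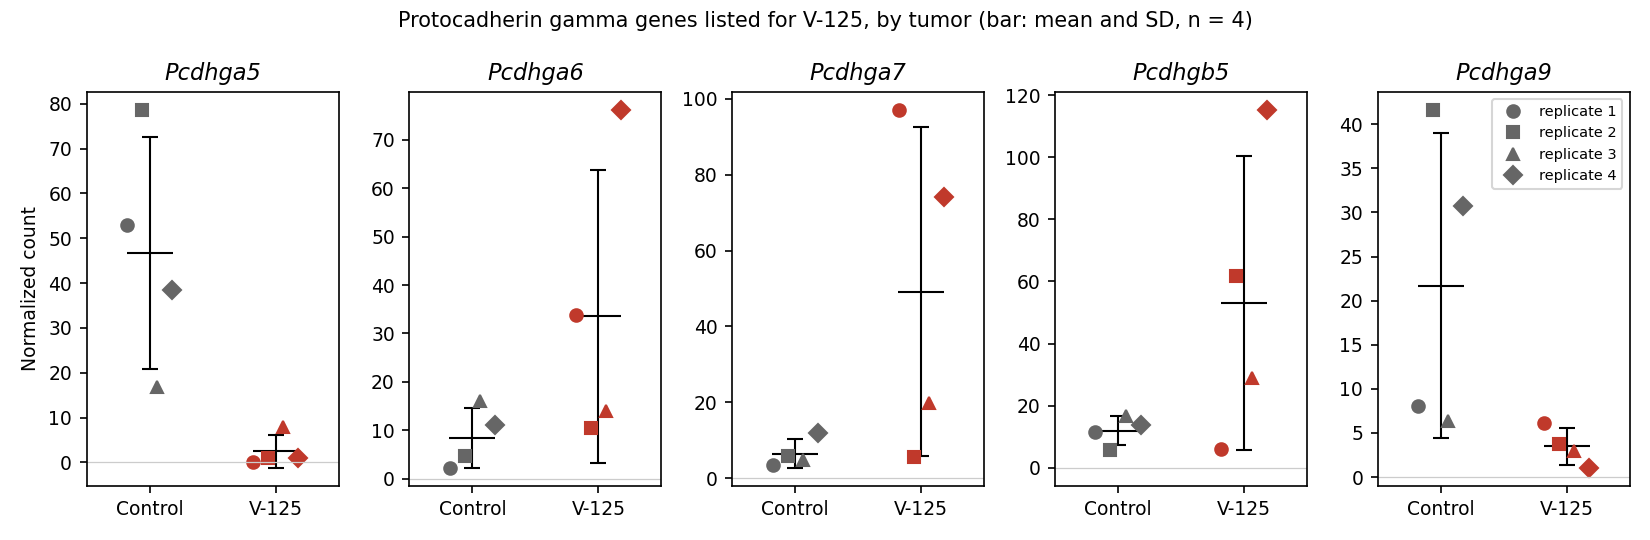
Normalized counts (y axis, linear, a separate scale for each gene) of the 5 gamma genes listed for V-125 in 4 control tumors (grey) and 4 V-125-treated tumors (red). Marker shapes give the replicate number, which names a tumor and is not taken as a pairing, and bars give the mean and SD. Pcdhga5 and Pcdhga9 show no overlap between groups, and Pcdhga6, Pcdhga7 and Pcdhgb5 each have at least 1 V-125-treated tumor within the control range.

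The gene with the highest normalized count among these 5 was Pcdhga5 in 3 control tumors and shared first place with Pcdhgb5, at 21 reads each, in control replicate 3. Pcdhga5 made up 67.6%, 57.6%, 27.6% and 36.3% of the summed normalized count of the 5 genes in control replicates 1 to 4, and 0%, 1.15%, 10.8% and 0.395% in V-125 replicates 1 to 4. In V-125-treated tumors the first place went to other gamma genes, and not to the same gene in each tumor. Pcdhga7 took 67.9% of the sum in V-125 replicate 1, and Pcdhgb5 took 74.7%, 39.2% and 43.1% in V-125 replicates 2 to 4. The sums themselves overlapped. They were 78.4, 136, 60.7 and 106 normalized counts in control replicates 1 to 4 and 143, 82.6, 73.5 and 268 in V-125 replicates 1 to 4. Counts grow with gene length, and on the FPKM scale, which divides by it, Pcdhga5 led in all 4 control tumors and the leading gene of each V-125-treated tumor was the same as by normalized count. A further scale kept all reads of a gene but took only the exon bases that belong to 1 gene as its length. On it, V-125 replicate 3 was led by Pcdhga7 (0.354 against 0.345 for Pcdhgb5) and V-125 replicate 4 by Pcdhga6 (1.61 against 1.38 for Pcdhgb5). Reads from shared exons may be among those counted, so these values are not levels of the unshared exons alone. Since the 5 genes were listed for a difference, these shares describe them only and give no make-up of the whole gamma cluster.

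**Figure D3:**
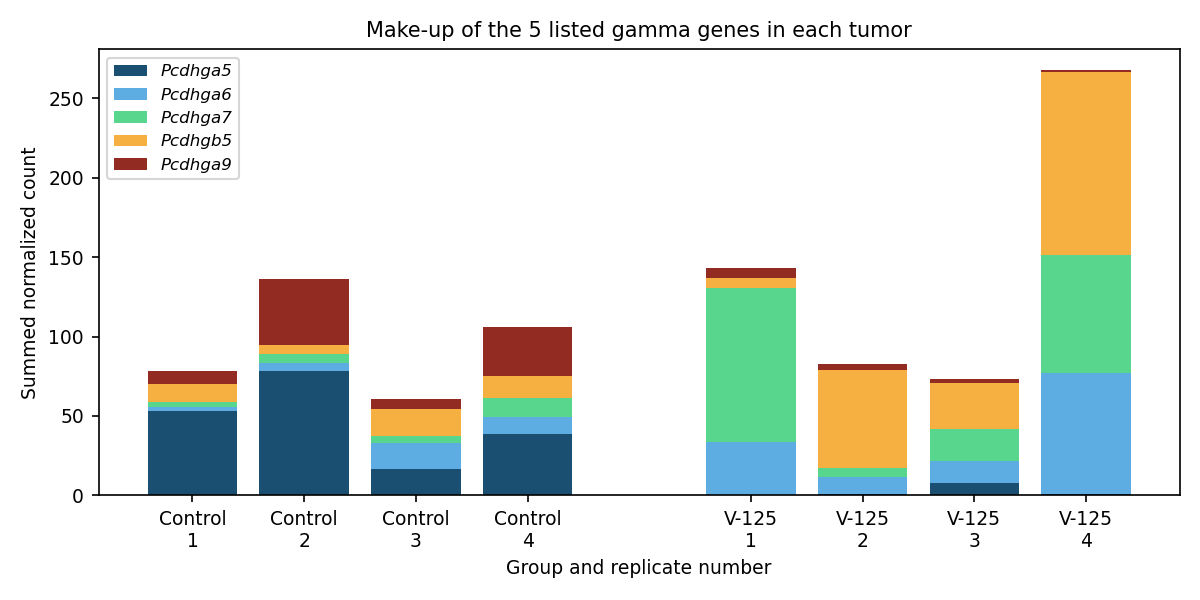
Summed normalized counts (y axis) of the 5 gamma genes listed for V-125 in each tumor, stacked by gene. Dark blue Pcdhga5 fills 27.6% to 67.6% of the control bars and at most 10.8% of the V-125 bars, where Pcdhga7 (green) or Pcdhgb5 (orange) is the largest part.

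All of these genes had low levels. Per length, on the deposited FPKM scale (reads per kilobase of gene length, scaled to a read total of that tumor), no tumor exceeded 1.04. In control tumors the order of the FPKM levels was Pcdhga5 at 0.556 ± 0.309 (SD, n = 4), Pcdhga9 at 0.215 ± 0.172 (SD, n = 4), Pcdhga6 at 0.0996 ± 0.0728 (SD, n = 4), Pcdhgb5 at 0.0983 ± 0.0381 (SD, n = 4) and Pcdhga7 at 0.0690 ± 0.0398 (SD, n = 4). In V-125-treated tumors it was Pcdhga7 at 0.524 ± 0.465 (SD, n = 4), Pcdhgb5 at 0.435 ± 0.390 (SD, n = 4), Pcdhga6 at 0.393 ± 0.354 (SD, n = 4), Pcdhga9 at 0.0347 ± 0.0211 (SD, n = 4) and Pcdhga5 at 0.0295 ± 0.0434 (SD, n = 4). In both groups, neighbors in the order differed by less than 1 SD of the higher gene, except Pcdhga5 and Pcdhga9 in control tumors and Pcdhga6 and Pcdhga9 in V-125-treated tumors. With the length of the exon bases that belong to 1 gene only in place of the full length, the levels were at most 1.02 ± 0.57 (SD, n = 4), for Pcdhga5 in control tumors, and Pcdhga6 (0.712) came before Pcdhgb5 (0.635) with V-125. In bulk tumors, fewer cells with a given promoter switched on and less RNA per cell cannot be told apart.

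The spread between tumors of the same group was large. The biological coefficient of variation from edgeR was 0.687 for Pcdhga5, 0.697 for Pcdhga6, 0.700 for Pcdhgb5 and 0.742 for Pcdhga7. The median over the 1333 genes fitted was 0.318, and between 95.6% and 97.4% of them had a lower value than these genes. Genes with few reads vary more, and the trend of edgeR at the read level of these genes was 0.538 to 0.548, so that all 4 lay above it.

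Over the 8 tumors, Pcdhga6 and Pcdhga7 were the 2 gamma genes whose log2(normalized count + 1) values were most alike (Pearson correlation 0.85, and 0.73 after subtracting each group's mean). The correlation was 0.73 for Pcdhga5 and Pcdhga9, and 0.19 after subtraction. Every pair of a gene lower with V-125 and a gene higher with V-125 had a negative correlation over the 8 tumors. It was −0.77 for Pcdhga5 and Pcdhga6 and −0.75 for Pcdhga9 and Pcdhgb5, and −0.55 and −0.61 after subtraction. The other such pairs were weaker after subtraction, and some turned positive. They were −0.31 for Pcdhga5 and Pcdhga7, −0.24 for Pcdhga6 and Pcdhga9, 0.04 for Pcdhga5 and Pcdhgb5, and 0.15 for Pcdhga7 and Pcdhga9. These correlations describe the tumors, since all the genes were listed for a difference between the same groups. Among 1372 listed genes with a mean of at least 10 normalized counts, those most like Pcdhgb5 were Mvd (0.97), Hmgcs1 (0.97) and Acss2 (0.96), which encode a decarboxylase and a synthase of the mevalonate pathway and an acetyl-CoA synthetase. They were also the 3 most like it after subtraction of group means, at 0.96, 0.95 and 0.94. For Pcdhga6 they were Appl2, Bckdha and Hist1h2be (0.98 to 0.96), and for Pcdhga7 they were Stxbp6, Car12 and Capn5 (0.96 to 0.93), again the same genes after subtraction. For Pcdhga5 they were Nckap5l, Plscr2 and Rab12 (0.98 to 0.96), but Stk38l, Fam227a and 4930402H24Rik after subtraction (0.99 to 0.93). For Pcdhga9 they were Msrb3, Cfap300 and Kcnmb1 (0.98 to 0.94), and Ubash3a, Msrb3 and Cfap300 after subtraction (0.97 to 0.93). All of these values are the highest among 1372 genes over only 8 tumors. They lay between 0.86 and 0.99 for each of the 5 gamma genes, so high values are not particular to any of them. A link in function to any of these genes was not tested.

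With bexarotene, the authors' group means were lower than in control tumors for 5 of the 6 listed genes and higher for Pcdhb18. All 4 listed gamma genes were of the gamma A subfamily and were lower. Their spread between tumors is not known from group means, so no test was made. The authors' mean of Pcdhga9 was 1.29 normalized counts with bexarotene and 21.6 in control tumors, a 16.7-fold lower level and the lowest ratio of the 6 genes. The authors' mean of Pcdhga12 was 1.47 against 12.9, and that of Pcdhga2 was 1.61 against 12.6, 8.76-fold and 7.82-fold lower. For Pcdhga5 the authors' means were 15.0 and 46.5, 3.10-fold lower. The bexarotene means of Pcdhga9, Pcdhga12 and Pcdhga2 are close to 1 normalized count, and with 5 normalized counts added to both means the log2 ratios moved from −4.06 to −2.08, from −3.13 to −1.47 and from −2.97 to −1.41. Absolute log2 ratios had a median of 2.30 over the 6 genes and of 0.89 over all genes of this table with means above 0. Since genes with few reads are listed only when their ratios are large, the listing favors such a gap here too.

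The ratios of the beta genes were nearer to 1 than those of the gamma genes. For Pcdhb14 the authors' mean was 124.6 normalized counts with bexarotene and 214 in control tumors, 1.72-fold lower. For Pcdhb18 the authors' means were 58.3 and 26.3, 2.22-fold higher. Thus 5 of the 6 genes were over 2-fold apart with bexarotene, Pcdhb14 being the exception, and 44.6% of all genes in the bexarotene table were over 2-fold apart. Of all genes listed for bexarotene, 43.3% were higher than in control tumors.

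Set side by side, Pcdhga5 and Pcdhga9 were the 2 genes with values for both agonists. Pcdhga5 had a mean of 2.49 normalized counts with V-125 and 15.0 with bexarotene, and Pcdhga9 had 3.49 and 1.29. Both comparisons used the same control tumors, whose mean in the V-125 table and in the bexarotene table had a median ratio of 0.994 over the 491 genes in both. The 3 gamma genes that were higher with V-125 (Pcdhga6, Pcdhga7 and Pcdhgb5) were not listed for bexarotene, and Pcdhga2 and Pcdhga12 were not listed for V-125. V-125 and bexarotene were not compared by a test, since bexarotene values were given as group means only.

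**Figure D4:**
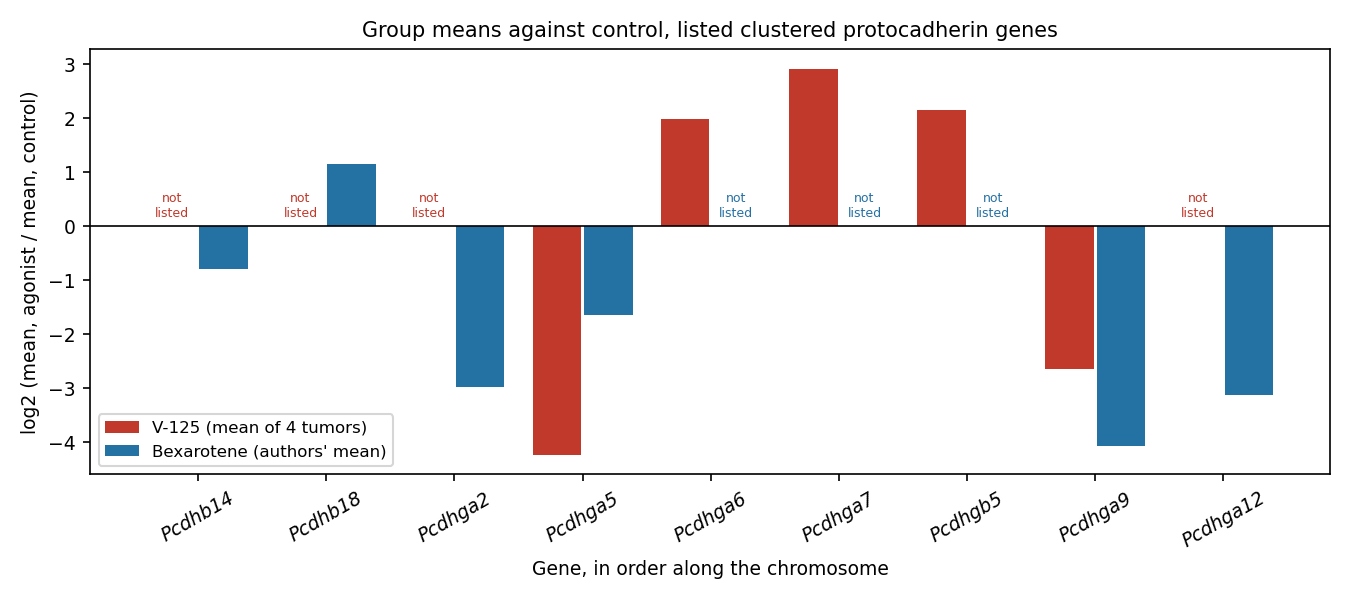
Log2 ratios of group means to control (y axis) for the 9 listed clustered protocadherin genes in their order along the chromosome (x axis), for V-125 (red, means of 4 tumors) and bexarotene (blue, authors' means), without error bars because bexarotene tumors have no single values. Pcdhga5 and Pcdhga9 lie below 0 with both agonists, Pcdhga6, Pcdhga7 and Pcdhgb5 lie above 0 with V-125, and words mark genes that a table does not list.

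Of 12 protocadherin genes outside the clusters, none was listed for V-125 and 1 for bexarotene, Pcdh18, at an authors' mean of 1863 normalized counts against 1279. Of 49 other cadherin superfamily genes, V-125 listed 3, each of them lower, while 51.4% of all genes listed for V-125 were higher than in control tumors. Cdh3, which encodes P-cadherin of basal and myoepithelial cells, averaged 203.9 ± 82.5 normalized counts (SD, n = 4) in control tumors and, with no overlap, 58.7 ± 43.5 (SD, n = 4) under V-125 (adjusted p = 0.0604 in edgeR). For bexarotene the authors' mean of Cdh3 was 57.5 against 203. Cdh1 (E-cadherin) and Cdhr4 were the other two for V-125, and for bexarotene Cdh15 was also lower, listed at 0 against a mean of 4.60, while Cdh19 and Dsg2 were higher.

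Of 26 known regulators of the clusters, among them CTCF, the cohesin subunits, DNA methyltransferases and Smchd1, none was listed for V-125. Without the share of all tested genes that was listed, this count says nothing about the regulators. For bexarotene Tet2, an enzyme that oxidizes methylated cytosine, was listed at an authors' mean of 1100.2 normalized counts against 699.7. Of 26 signaling partners, Nlgn2 was listed for both agonists, at 631 ± 117 normalized counts (SD, n = 4) in control tumors against 426 ± 87.2 (SD, n = 4) with V-125, and with an authors' mean of 389 against 628 for bexarotene. Abi2, a subunit of the actin-regulating WAVE complex, was listed for bexarotene at an authors' mean of 804 against 534. Of 37 genes near the clusters, 3 were listed for each agonist, all lower, namely Taf7, Psd2 and Cxxc5 for V-125 and Diaph1, Ndufa2 and Cd14 for bexarotene. Taf7 was the only one of 27 other annotated genes within the interval of the clusters to be listed, at 407 ± 61.3 normalized counts (SD, n = 4) in control tumors and 306 ± 48.5 (SD, n = 4) with V-125. Of the 7 genes of these lists with V-125 values, edgeR called 0 after adjustment and 4 at an unadjusted p under 0.05, DESeq2 called 3 and limma-voom called 0. Of all fitted genes, edgeR called 9.00% after adjustment, 71.5% had an unadjusted p under 0.05 in edgeR, and limma-voom called 11.3%. DESeq2 called 70.2% of the genes in the table, so that none of these counts is above the background.

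Some markers of other cell types that the tumors could hold were listed too, with the values given here, and their part in the protocadherin values was not tested. The labelled tissue is mammary tumor, and the group means of Epcam, an epithelial adhesion gene, were 42502 normalized counts in control tumors and 32209 with V-125. Among 9 neuron markers, only Stmn2 was listed, at 9.50 to 32.7 normalized counts with V-125 and 5.76 to 9.58 in control tumors. The 2 of 8 listed Schwann cell markers, Sox10 and S100b, summed to 12164 to 14452 with V-125 and 14747 to 19131 in control tumors, nearly all of it Sox10. In control tumors the mean of Sox10 was 16147 normalized counts, above that of the luminal marker Cdh1 at 7523. The sum is therefore not read as a level of Schwann cells. S100b alone had group means of 188 with V-125 and 391.5 in control tumors, without overlap (adjusted p = 0.0573 in edgeR). The myoepithelial marker Trp63 (1 of 6 listed) ranged from 0 to 27.8 with V-125 and from 27.2 to 105 in control tumors, and the muscle marker Acta2 (1 of 5) from 88.8 to 609 and from 498 to 951. Summed over Kdr and Eng, 2 of 7 endothelial markers, the range was 1487 to 1956 with V-125 and 835 to 1216 in control tumors. Itgam, 1 of 7 leukocyte markers, ranged from 30.7 to 60.6 with V-125 and from 65.5 to 89.0 in control tumors, and 2 of 9 luminal markers (Epcam and Cdh1) summed to 34079 to 41053 and 43376 to 62618. No fibroblast marker (of 8) and no adipocyte marker (of 4) was listed for V-125. Of the 9 fitted markers edgeR called 0 after adjustment and 6 at an unadjusted p under 0.05, limma-voom called 3, and DESeq2 called 7 of all 10 listed, beside shares of 9.00%, 71.5%, 11.3% and 70.2% over the whole table. No listed marker was at 0 in all 8 tumors, and the level of a marker that is not listed is not known here.

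For bexarotene, the listed markers were given as authors' means against control. Stmn2 was higher (31.0 against 6.74), as were the adipocyte marker Fabp4 (530.2 against 157) and the smooth muscle and myoepithelial marker Myh11 (113 against 39.4). The myoepithelial markers Krt17 (0.275 against 13.1) and Oxtr (509 against 932), the leukocyte markers Csf1r and Itgam, the fibroblast marker Pdgfrb and the luminal markers Krt8, Krt18 and Csn2 were lower. No Schwann cell or endothelial marker was listed.

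The read total behind the FPKM values, worked back from counts, FPKM and gene length, lay between 15571690 and 22574865 in the 8 tumors. Which reads it covers is not given in the sources used here. The 5 gamma genes together had 68 to 253 reads in a tumor, so that a few reads more or less move the values of Pcdhga5 and Pcdhga9.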

How the data were processed

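RNA was sequenced from 4 tumors per group (poly(A) libraries). Per the labels, reads were aligned with STAR 2.6.1d and counted with featureCounts 1.5.0-p3, and limma is named for the comparison. The genome build is not named, and coordinates of the listed members matched GRCm38. For V-125, the authors deposited raw counts per tumor, normalized counts (a signal, scaled by the size factor of the tumor) and FPKM values. For bexarotene, the authors deposited group means of normalized counts. The deposited columns of log2 fold change, p-value, adjusted p-value, −log10 of it and a score proportional to the log2 fold change are the authors' comparisons. They were not used, except to find where the tables stop.

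Counts were fitted with edgeR 4.0.16 (quasi-likelihood, filterByExpr, the authors' size factors, R 4.3.3) on the 1333 of 1589 listed genes that passed the filter, with Benjamini-Hochberg adjustment and a threshold of 0.05. Standard errors follow from the F statistic. Because listed genes were selected on this difference, these adjusted p-values are too small. Normalized counts were compared by exact permutation over 70 assignments (scipy 1.17.1). Alternatives were DESeq2 1.42.0, limma-voom 3.58.1, other scalings, filters, numbers of tests, a replicate block and leaving out each tumor. Variable exons were aligned with Biopython 1.88. All clustered protocadherins and the listed genes of fixed lists are named, with the 3 genes most like each member in pattern. Members and lists were chosen with earlier results of these data known. Each tumor carries its own mouse number in the labels, and tumors with the same replicate number are not taken as pairs.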

Additional observations from a re-analysis of the deposited data

Results flagged for a closer look

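Among 10 groups of 4 tumors, 2 for each of the 5 gamma genes with values by tumor, 1 held a tumor far from the others. V-125 replicate 3 had 7.94 normalized counts of Pcdhga5, while the other V-125-treated tumors had at most 1.06 (gap to range 0.867, above Dixon's 95% critical value for 4 samples). Chance flags about 1 in 20 groups. The 8 reads of this tumor are 8 of the 10 reads of Pcdhga5 in all V-125-treated tumors, and without it the log2 fold change of Pcdhga5 was −6.11. This tumor also had the largest share of Pcdhga5 among the 5 genes in its group, 10.8%. The cause was not tested.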

How the results depend on the processing

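The number of gamma genes called with V-125, 1 in edgeR, was 5 with DESeq2, 0 with the number of tests raised to 31780, 0 in limma-voom with that number and 0 with the replicate number as a block, and from 0 to 2 when each tumor was left out. It was also 1 with limma-voom, TMM, library totals, no low-count filter, and DESeq2 with the raised number of tests. Over the whole table edgeR called 120 genes, DESeq2 1116, edgeR with the block 19, and edgeR with each tumor left out from 0 to 237. With DESeq2, Pcdhga6 (log2 fold change 1.96), Pcdhga7 (2.91) and Pcdhgb5 (2.14) passed the threshold, and with the raised number of tests in DESeq2 their adjusted p-values were 0.799, 0.158 and 0.513, against 0.00752 for Pcdhga5. Pcdhga5 (−4.22) did not pass in edgeR with the raised number of tests, nor in limma-voom with that number (−4.44), nor with the replicate block (−4.46). The raised number of tests in DESeq2 and limma-voom was chosen after seeing the data. Deviations of same-numbered V-125 and control tumors had correlations of 0.13, −0.04, −0.20 and 0.08. V-125 replicate 1 correlated best with its own number, and V-125 replicates 2, 3 and 4 with other numbers. With 4 tumors per group, these correlations cannot settle whether the number pairs tumors. Leaving out each tumor gave log2 fold changes from −6.11 to −3.80 for Pcdhga5, 1.15 to 2.44 for Pcdhga6, 2.33 to 3.39 for Pcdhga7 and 1.42 to 2.50 for Pcdhgb5. Differences in normalized counts ranged from −54.2 to −33.6, 10.9 to 32.8, 26.7 to 57.2 and 20.3 to 56.7, and from −23.3 to −11.6 for Pcdhga9. On log2 and FPKM scales, the exact tests kept their side of the threshold. Adding 1 or 5 to the bexarotene means moved the log2 ratio to −2.38 or −1.41 for Pcdhga2, −3.30 or −2.08 for Pcdhga9 and −2.49 or −1.47 for Pcdhga12, by construction. No direction reversed in these alternatives. Few reads per gene limit all of these values.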
